A study of Mus musculus with 2 samples.

Results

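The genes described here mark 3 blood lineages that branch away from the granulocyte and monocyte path: red cells, megakaryocytes with their platelets, and mast cells with basophils and eosinophils. They are a list of 51 genes chosen by name, 16 erythroid, 13 of megakaryocytes and platelets, and 22 of mast cells, basophils and eosinophils. Of these, 49 had a probe among the 27620 named genes of the array, 4 of them under an older symbol, while Tubb1 and Ear2 had none under any name searched. The M/E cells profiled are bone marrow cells of the mouse, made immortal with MLL/ENL, a fusion gene known from leukaemia. Their genotype is Mef2c del/-, and the labels state that they make no functional Mef2c of their own. The MEF2C-ASR culture had been infected with the vector MYs-pMef2cASR, which carries a constitutively active Mef2c mutated in its binding of histone deacetylases (HDAC), and the control culture with the empty vector MYs-iPAC. Both were selected with puromycin and grown with IL3, IL6 and GM-CSF (10 ng/ml of each) and with SCF (100 ng/ml). Each group was 1 array carrying the pooled RNA of harvests 6, 24 and 48 h after seeding. With 1 array a group there was no replicate spread and no test, and "higher" and "lower" describe these 2 arrays.

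GATA1 is the zinc finger factor that drives red cell, megakaryocyte, mast cell and eosinophil genes, and it works with its cofactor FOG-1, the product of Zfpm1. KLF1 acts after GATA1 on globin and red cell membrane genes, while NF-E2 and FLI1 serve megakaryocyte genes, and MITF serves mast cell genes. The growth factors IL3 and SCF, both present in the medium, are known to support mast cells and basophils.

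The 2 arrays were not equally sensitive. The signal of negative control spots had an SD of 3.08 with MEF2C-ASR and 15.5 in the control. Of 43379 spots, 67.5% were well above background on the MEF2C-ASR array and 60.1% on the control array. The dimmest probe called well above background had a signal of 20.0 on the MEF2C-ASR array and 38.3 on the control array, so a gene between these values could be detected with MEF2C-ASR alone. Signals are linear processed intensities. Levels are log2 signals minus each array's 75th percentile, and a difference is the MEF2C-ASR level minus the control level. Errors given with signals are those of the Feature Extraction error model for 1 spot. Over probes printed repeatedly, spotting alone gave a difference of single spots an SD of 0.24 (log2) below a mean signal of 100 (27 probes), 0.19 between 100 and 1000 (43 probes), and 0.06 at 1000 or more (80 probes). These errors leave out any variation between cultures. Mef2c itself, by 1 of 2 probes, had a signal of 1969 with MEF2C-ASR, against 795 in the control, a log2 difference of 1.35. Neither array detected the other Mef2c probe, which stood at 7.76 with MEF2C-ASR and 7.86 in the control. The place of these probes relative to the deletion is not given, so they do not check the deletion. Hprt differed by 0.02.

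Because all 3 lineages are known for GATA-driven genes, the upstream promoter sequence of the members was searched for GATA letters. RefSeq windows of build GRCm38.p6 were matched by symbol for 39 of the 51 genes (44 windows), and the 250 bases before the start site were read. The letters AGATAA or TGATAA, on either strand, were in 21 of the 44 windows (47.7%), against 16.6% of all 32851 windows. By lineage they were in 7 of 13 erythroid windows, 5 of 9 megakaryocyte and platelet windows, and 9 of 22 windows of the mast cell to eosinophil group. A search for letters of the kind KLF factors bind, CCNCNCCC on either strand, found them in 18 of the 44 windows (40.9%), against 45.9% of all windows. By lineage these were in 8 of 13 erythroid, 4 of 9 platelet and 6 of 22 mast cell to eosinophil windows. Windows are shown for Klf1 and Prss34, which had the largest differences downward among the genes of their lineages well above background on both arrays, for Siglecf, which had the largest upward among them, and for Hba-a1 and Cpa3 as well-known genes of red cells and mast cells. They are read 5′ to 3′ along the gene, with GATA letters in capitals (on the reverse strand these read TTATCT or TTATCA).
Klf1, chr8:84901732-84901981, plus strand: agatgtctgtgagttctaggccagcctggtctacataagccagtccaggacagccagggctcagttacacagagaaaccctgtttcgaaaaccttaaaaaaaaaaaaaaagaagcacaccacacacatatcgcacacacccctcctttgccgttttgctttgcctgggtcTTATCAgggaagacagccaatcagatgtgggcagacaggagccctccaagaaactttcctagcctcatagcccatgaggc
Hba-a1, chr11:32283422-32283671, plus strand: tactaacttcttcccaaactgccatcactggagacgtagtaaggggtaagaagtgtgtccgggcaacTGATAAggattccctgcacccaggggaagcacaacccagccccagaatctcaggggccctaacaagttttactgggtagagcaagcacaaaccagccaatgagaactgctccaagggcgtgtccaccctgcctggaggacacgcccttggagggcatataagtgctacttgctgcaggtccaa
Cpa3, chr3:20242182-20242431, minus strand: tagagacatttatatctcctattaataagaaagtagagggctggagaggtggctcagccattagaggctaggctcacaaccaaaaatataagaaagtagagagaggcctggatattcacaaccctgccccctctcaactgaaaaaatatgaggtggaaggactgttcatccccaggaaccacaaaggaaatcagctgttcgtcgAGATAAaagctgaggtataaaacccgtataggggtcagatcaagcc
Prss34, chr17:25298144-25298393, plus strand: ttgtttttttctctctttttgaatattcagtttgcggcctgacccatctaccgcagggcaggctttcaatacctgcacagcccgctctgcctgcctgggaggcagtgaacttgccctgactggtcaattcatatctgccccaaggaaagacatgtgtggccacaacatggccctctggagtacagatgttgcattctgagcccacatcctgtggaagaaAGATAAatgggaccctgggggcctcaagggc
Siglecf, chr7:43351091-43351340, plus strand: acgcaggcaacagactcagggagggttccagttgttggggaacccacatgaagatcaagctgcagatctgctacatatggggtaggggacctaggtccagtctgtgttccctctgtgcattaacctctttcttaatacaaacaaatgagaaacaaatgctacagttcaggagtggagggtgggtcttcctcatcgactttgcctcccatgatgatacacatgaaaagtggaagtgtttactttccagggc
Counted back from the start site, with -1 as the last base before it, the match began at -80 in Klf1, -183 in Hba-a1, -46 in Cpa3 and -31 in Prss34, and the Siglecf window held none. Binding was not measured, so a match only describes the letters. The windows shown were chosen by difference or by name, with no platelet gene among them. A link of the letters to the direction of a difference was not tested.

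As a whole, many of the lineage genes were near background or undetected, and none of those measured was 2-fold apart. Of the 49 genes with a probe, 32 were measured, that is well above background on both arrays (65.3%, against 60% of all genes). A further 6 were detected above background with MEF2C-ASR alone (7.97% of all genes were), 1 in the control alone (0.608% of all genes) and 10 on neither array (31.3% of all genes). Of the 32 measured genes, 15 were below the 25th percentile of level of all measured genes, a signal of 144. None of the 32 was at least 2-fold higher or lower, where 1.74% of 16574 measured genes were higher and 1.91% lower (34.6% of such calls were upward with scaling by spike-in spots, against 47.8% here). Against such small shares, 0 of 32 is near the background. At 1.5-fold, 1 member was higher (background 4.46%) and 4 were lower (background 5.03%). With normexp background correction all 5 fell inside 1.5-fold, and over all genes 501 were higher and 414 lower at that size, against 739 and 833 here. Of the 15 dim members, 3 were at least 1.5-fold lower and 0 higher, where 11.9% and 5.24% of all genes in that range of level were, and 5.16% and 2.29% of them were past 2-fold. Fewer cells of a lineage and less RNA per cell cannot be told apart in such RNA. The 32 differences ran from -0.96 for Klf1 to 0.78 for Siglecf.

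**Figure D1:**
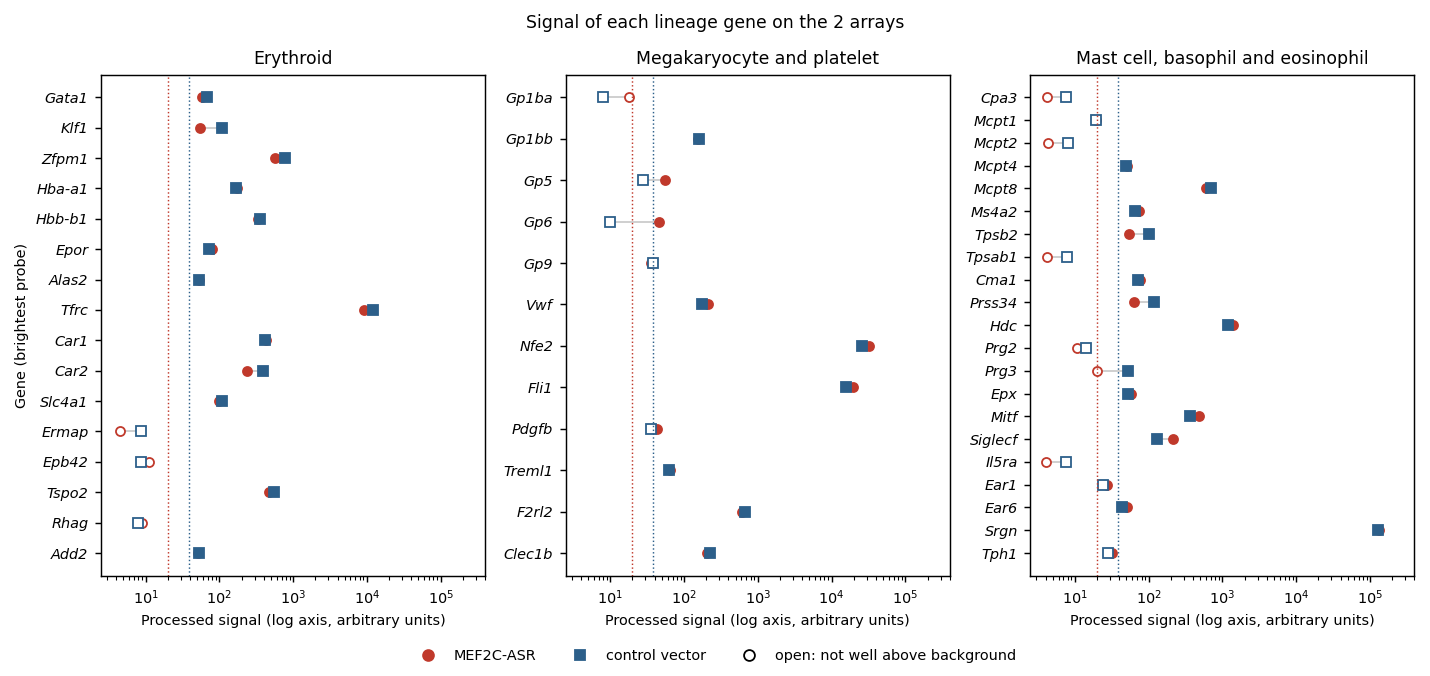
Processed signal (log axis, arbitrary units) of the brightest probe of each of the 49 genes, with MEF2C-ASR as red circles and the control vector as blue squares. Open symbols are not well above background and dotted lines mark the lowest signal that was, 20.0 with MEF2C-ASR and 38.3 in the control. Most pairs of symbols lie on top of each other, and many lie close to the dotted lines.

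Among the erythroid transcription factors, Klf1 and Zfpm1 were lower with MEF2C-ASR and Gata1 was close to the control. Klf1 had a signal of 54.4 ± 6.88 with MEF2C-ASR, against 108 ± 13.4 in the control. The difference was -0.96 ± 0.26 (log2, error of the model), 1.94-fold lower and just inside the 2-fold line, and with spike-in scaling it was -1.09, past that line. Normexp, with its offset of 50, gave -0.55. Zfpm1 stood at 565 ± 56.7 with MEF2C-ASR and 786 ± 79.1 in the control, a difference of -0.44 ± 0.20. Both of these differences exceeded their error more than 2 times over, as did 7.47% of all measured genes in that direction. Gata1 was printed as 10 spots, of which 8 were usable. Their signals ran from 53.1 to 68.5 with MEF2C-ASR (median 58.8), against 53.8 to 78.5 in the control (median 68.3). The spots of the 2 arrays overlapped, and the difference of -0.17 compares with a spotting error of 0.07. The values of Klf1 and Zfpm1 rest on 1 spot each.

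The globin and haem genes had dim signals that lay close together on the 2 arrays. Hba-a1, an adult alpha globin gene, had a signal of 174 with MEF2C-ASR and 167 in the control by one probe, and 72.0 and 84.2 by another. The mean difference was -0.05. For Hbb-b1, an adult beta globin gene, the brightest of 4 probes gave 339 with MEF2C-ASR and 351 in the control, and the mean over 2 measured probes was 0.03. The accession these probes carry is listed in RefSeq under Hbb-bt, and adult globin genes are near-identical copies, so the copy measured is uncertain. Alas2, the red cell enzyme that starts haem synthesis, stood at 53.6 with MEF2C-ASR and 52.6 in the control. Neither globin gene nor Alas2 differed by more than its error.

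Of the receptors that supply the red cell lineage, Tfrc was bright and lower with MEF2C-ASR, and Epor was dim and within its error. Tfrc, the transferrin receptor that brings iron into dividing cells of many kinds, was read by 9 usable spots. They ran from 9056 to 9371 with MEF2C-ASR (median 9220), against 11837 to 12407 in the control (median 12101). No spot of one array reached the range of the other, and the difference of -0.36 was far above its spotting error of 0.01, although it was below 2 times the error of the model (0.20 for a difference). Epor, the erythropoietin receptor, was dim and differed by 0.15 ± 0.28, with 78.5 with MEF2C-ASR and 72.7 in the control.

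**Figure D2:**
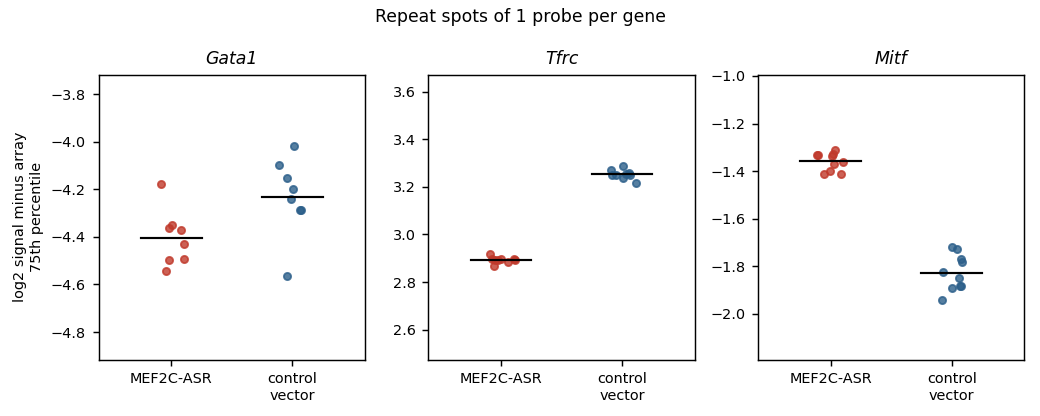
Levels (log2 signal minus the array's 75th percentile) of the repeat spots of 1 probe for Gata1, Tfrc and Mitf, with MEF2C-ASR left and the control vector right. Points are spots of the same array, not replicates, and black lines are means. The spots overlap for Gata1, and lie apart for Tfrc (lower with MEF2C-ASR) and Mitf (higher with MEF2C-ASR).

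Of the red cell enzymes and membrane genes, Car2 alone was at least 1.5-fold apart. This cytosolic carbonic anhydrase had a signal of 234 ± 23.9 with MEF2C-ASR, against 386 ± 39.5 in the control, a difference of -0.68 ± 0.21, and -0.57 with normexp. Its relative Car1, separated from it by 1 coding gene on chromosome 3, was at 429 with MEF2C-ASR and 416 in the control (0.08). The anion exchanger Slc4a1 (band 3) stood at 99.3 with MEF2C-ASR and 109 in the control (-0.10). Tspo2, a red cell membrane protein, was at 470 with MEF2C-ASR and 548 in the control (-0.19). The membrane skeleton gene Add2 was well above background by 1 of 4 probes and differed by -0.02. Ermap, Epb42 (protein 4.2) and Rhag, genes of the red cell membrane, were not called above background on either array, with signals between 4.26 and 11.1 with MEF2C-ASR and between 7.88 and 8.58 in the control.

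Over the 13 measured erythroid members the median difference was -0.10, beside -0.03 for all measured genes, and 9 of 13 lay below 0, beside 55.2% of all genes. Of these, 2 were at least 1.5-fold lower, Klf1 and Car2, and none was higher. Across the other processing settings the median ran from -0.23 with spike-in scaling, where that of all genes was -0.16, to -0.08 with the intensity trend removed, where that of all genes was -0.01. The median of all genes was below 0 in each of them too.

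**Figure D3:**
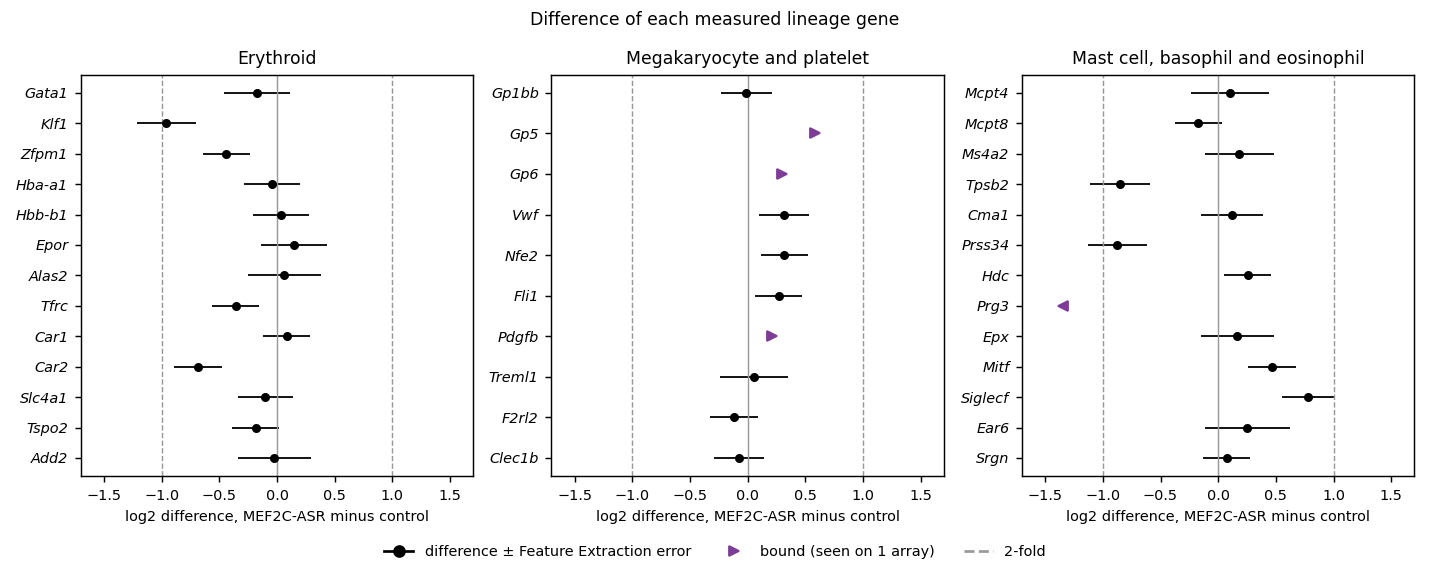
log2 difference (MEF2C-ASR minus control) of the lineage genes with a difference or a bound. Points are differences with the Feature Extraction error, purple triangles are bounds for genes well above background on 1 array, and dashed lines mark 2-fold. Klf1, Car2, Tpsb2, Prss34 and Siglecf lie furthest from 0 among the measured genes, and none of their points passes a dashed line, while the bound for Prg3 (-1.35) does.

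In the megakaryocyte and platelet group the transcription factors had bright signals, with differences above 0 that were below 2 times their error. Nfe2, the haematopoietic subunit of NF-E2, had a signal of 31765 with MEF2C-ASR and 26131 in the control (difference 0.32 ± 0.20). Fli1, an ETS factor of megakaryocytes and endothelium, had 2 probes, at 10185 and 19377 with MEF2C-ASR, against 9062 and 15793 in the control. The mean of 0.27 was below 2 times its error. Both factors are also expressed outside megakaryocytes, so their signal does not mark platelets.

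None of the measured genes of platelet surface receptors and adhesion was 1.5-fold apart. Gp1bb, a subunit of the receptor for von Willebrand factor, stood at 153 with MEF2C-ASR and 158 in the control (-0.01). Clec1b, the podoplanin receptor CLEC-2, was at 208 with MEF2C-ASR and 225 in the control (-0.08). Treml1, a platelet granule receptor, was at 64.3 with MEF2C-ASR and 63.4 in the control (0.06). F2rl2, which encodes the thrombin receptor PAR3, stood at 613 with MEF2C-ASR and 681 in the control (-0.12). Vwf, the adhesive protein of platelets and endothelium, was measured by 1 of 3 probes, at 215 with MEF2C-ASR and 177 in the control (0.31 ± 0.22). Each of these 5 genes differed by less than 2 times its error.

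The other 3 glycoprotein genes with a signal above background, Gp5, Gp6 and Gp9, were detected with MEF2C-ASR alone, as was the growth factor gene Pdgfb. That is 4 of the 12 genes of this group with a probe. Of all genes, 7.97% were seen with MEF2C-ASR alone and 0.608% in the control alone, where the limits were 20.0 and 38.3. Gp5 is a further subunit of the von Willebrand factor receptor, and its signal was 55.8 with MEF2C-ASR, against 27.7 in the control. Gp6, the collagen receptor, stood at 45.8 with MEF2C-ASR and 9.92 in the control. The control's detection limit reduces these to bounds, at least 1.49-fold higher for Gp5 and at least 1.23-fold for Gp6. Pdgfb, at 43.3 with MEF2C-ASR and 35.9 in the control by 1 of 2 probes, was at least 1.16-fold higher. None of the bounds reached 2-fold, as 3.77% of the 2200 genes seen with MEF2C-ASR alone did. For Gp9, also a subunit of that receptor, the control signal of 37.8 was above the 35.8 with MEF2C-ASR, so no bound can be given. Gp1ba, another subunit, was below the detection call on both arrays, at 18.2 with MEF2C-ASR and 8.05 in the control. The 4 genes seen with MEF2C-ASR alone had control signals between 9.92 and 37.8, under the control array's limit. When the background filter was dropped, Gp1ba, Gp5 and Gp6 were past 2-fold, with differences of 1.22, 1.05 and 2.24, values that rest on control signals below its limit of 38.3.

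The 7 measured genes of this group had a median difference of 0.06, with 4 above 0 and 3 below, and none was 1.5-fold apart. With spike-in scaling, which moved all differences by -0.13, the median was -0.07.

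Among the mast cell proteases, Tpsb2 and Prss34 were lower with MEF2C-ASR, and the others were near the control or undetected. Tpsb2, the tryptase mMCP-6, had a signal of 54.8 ± 6.99 with MEF2C-ASR, against 101 ± 12.9 in the control, a difference of -0.85 ± 0.26. Prss34, the basophil and mast cell serine protease mMCP-11, stood at 63.7 ± 8.03 with MEF2C-ASR and 120 ± 14.9 in the control, a difference of -0.87 ± 0.26. With spike-in scaling Prss34 was just past the 2-fold line, and with normexp Tpsb2 and Prss34 were at -0.58 and -0.54. These 2 genes lie close together on chromosome 17. Between them lies the tryptase gene Tpsab1, the direct neighbour of Tpsb2, which neither array detected above background.

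The chymase cluster on chromosome 14 did not follow them. Mcpt8, the basophil protease of that cluster, had a signal of 604 with MEF2C-ASR and 697 in the control (-0.17 ± 0.20). Its neighbour Mcpt4, a connective tissue mast cell chymase, was at 51.1 with MEF2C-ASR and 48.9 in the control (0.10), and Cma1, the chymase mMCP-5, at 76.1 with MEF2C-ASR and 71.7 in the control (0.12). Mcpt1 and Mcpt2, chymases of mucosal mast cells, and Cpa3, the mast cell carboxypeptidase, were not called above background on either array. These proteases are closely related, so a probe can read more than one of them.

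Outside the proteases above, the measured genes of mast cell signalling and granule content had differences between 0.07 and 0.47. The measured proteases, also granule content, ran from -0.87 for Prss34 to 0.12 for Cma1. Mitf was read by 10 spots of its main probe, from 466 to 499 with MEF2C-ASR (median 487), against 331 to 386 in the control (median 356). The spots did not overlap, and the difference was 0.47, with a spotting error of 0.03 and an error of 0.21 by the model. Mitf also serves macrophages and osteoclasts, so it does not mark mast cells by itself. Hdc, which makes histamine, had a signal of 1402 with MEF2C-ASR and 1204 in the control (0.26 ± 0.20). Ms4a2, the beta chain of the high-affinity IgE receptor, was at 73.0 with MEF2C-ASR and 66.0 in the control (0.18 ± 0.30). Srgn, the granule proteoglycan serglycin, which many blood cells make, stood at 132260 with MEF2C-ASR and 128830 in the control (0.07), and its single spot carried a flag on its local background. Tph1, an enzyme of serotonin synthesis, was well above background with MEF2C-ASR alone and by 1 of 2 probes, at 32.1 against 28.2 in the control, and allows no bound.

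Eosinophil genes held the largest difference upward and the single bound downward. Siglecf, a sialic acid receptor of eosinophils and alveolar macrophages, had a signal of 214 ± 21.8 with MEF2C-ASR, against 128 ± 15.01 in the control. The difference was 0.78 ± 0.22, or 1.71-fold, and 0.53 with normexp. Mitf and Siglecf exceeded 2 times their error upward, as did 6.97% of all measured genes. Prg3, an eosinophil major basic protein, went the other way, with 19.8 ± 4.66 with MEF2C-ASR and 52.1 ± 9.63 in the control. That is at least 2.54-fold lower. Of the 168 genes seen in the control alone, 97% had a bound of at least 2-fold. The limit of 20.0 with MEF2C-ASR, below the control's 38.3, makes such bounds large by construction. With normexp the bound for Prg3 was -0.49. Its neighbour on chromosome 2, the related gene Prg2, was not detected above background, nor was Il5ra, the receptor chain for interleukin 5. Epx, eosinophil peroxidase, stood at 56.8 with MEF2C-ASR and 52.0 in the control (0.16), and -0.06 with normexp. The ribonuclease gene Ear6, measured by 1 of 2 probes, was at 50.8 with MEF2C-ASR and 43.7 in the control (0.25 ± 0.37). Its relative Ear1, at 27.0 with MEF2C-ASR and 23.8 in the control, was seen with MEF2C-ASR alone and allows no bound. The Ear genes are close copies of each other, so which of them these probes read is uncertain.

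Over the 12 measured genes of this lineage group the median difference was 0.14, and 9 lay above 0, beside 44.8% of all measured genes. The members furthest from 0 pointed both ways, with 2 at least 1.5-fold lower (Tpsb2 and Prss34) and 1 higher (Siglecf). The median was -0.17 when all probes were kept, a setting that adds the 9 genes not measured on both arrays. Signals too dim to measure had been replaced by surrogates that differ between the arrays, and 9 member probes with a surrogate on both arrays all had differences between -0.92 and -0.84.

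Further genes of each lineage were read from lists that did not hold the members. Beside their counts past 2-fold, 1.74% of all measured genes were higher and 1.91% lower. Of 36 other erythroid genes, 23 were measured, with a median of -0.11. Of these, 17 lay below 0, beside 55.2% of all measured genes. Tfr2, the second transferrin receptor and a partner of the erythropoietin receptor, was the single one past 2-fold. Its signal was 168 with MEF2C-ASR, against 454 in the control, a difference of -1.40 ± 0.21. Of 29 other megakaryocyte and platelet genes 24 were measured, with a median of 0.09. The platelet chemokine Pf4 (1.24), thrombospondin 1, Thbs1 (1.01), and the thromboxane synthase Tbxas1 (1.05) passed 2-fold upward, and the granule protein clusterin, Clu (-1.97), downward. Thbs1 was below 2-fold under 4 other settings, down to 0.88, and Tbxas1 under 2, at 0.92 in both. Macrophages are known to express Thbs1 and Tbxas1 too. Clu had a signal of 43.4 with MEF2C-ASR and 174 in the control, and was at -1.09 with normexp. Of 32 other mast cell, basophil and eosinophil genes 16 were measured, with a median of 0.14. The adaptor Lat2 (1.37) was higher. Il1rl1, the interleukin 33 receptor, was lower, with 25.7 with MEF2C-ASR and 65.8 in the control (-1.32). That value comes from 1 of 3 probes, and it was -0.52 with normexp. With all probes kept it was 0.02, an average that takes in probes not well above background on both arrays. The difference of Il1rl1 thus depends on the setting.

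Genes of granulocytes and monocytes stood apart from these lists in size. All 21 with a probe were measured on both arrays and their median was 0.74. Past 2-fold there were 8 higher and 0 lower (5 higher with spike-in scaling). Of all measured genes, 1.74% were higher and 1.91% lower at that size. Their part in the lineage differences was not tested. They were chosen with earlier results of these arrays known and are given for scale.

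**Figure D4:**
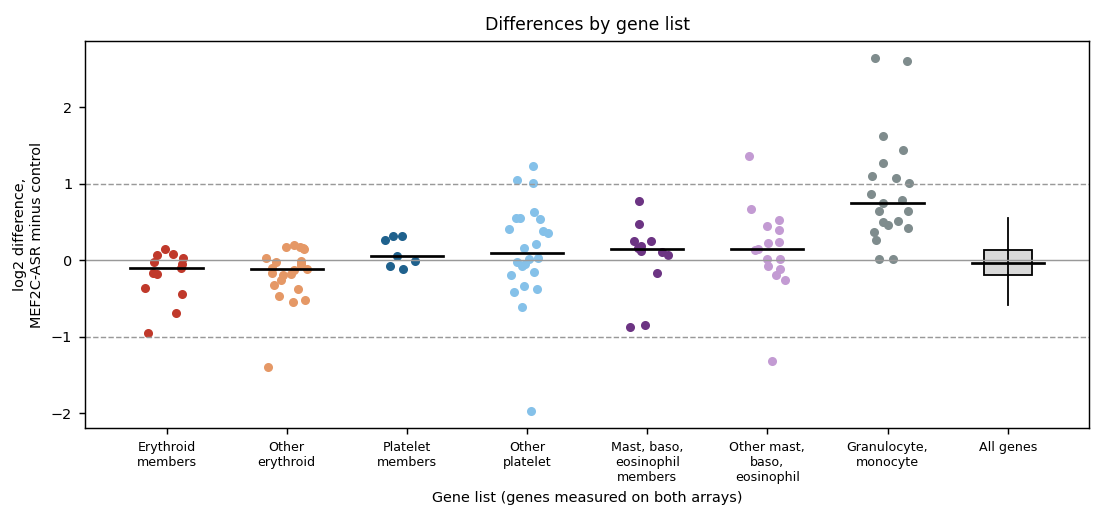
log2 difference (MEF2C-ASR minus control) of each measured gene in the 3 member lists, 3 lists of other genes of the same lineages, and a granulocyte and monocyte list, with black lines at the medians. For all genes the box spans the 25th to 75th percentile and the line the 5th to 95th. The lineage lists lie around 0, with medians from -0.11 to 0.14, and the granulocyte and monocyte genes lie above it (median 0.74).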

How the data were processed

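The deposited values are linear intensity readings of single spots, obtained by the authors with Feature Extraction 9.5.1.1, per the file headers, which subtracted background with detrending, put surrogates for signals too dim to measure and set the flags used here. The deposited value table repeats these intensity values (largest relative difference 0). The genome build of the probes was not stated.

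Levels are log2 signals minus the 75th percentile of the array's non-control spots (a signal of 1240 with MEF2C-ASR and 1272 in the control). Outlier spots were left out (201 with MEF2C-ASR and 202 in the control), which removed 3 spots of the genes described, and no spot was saturated. Spots of a probe were averaged, then a gene's probes well above background on both arrays. Probes were named by accession, symbol or older symbol through RefSeq of GRCm38.p6 (22897, 6713 and 3109 of 41174 probes). Another 8455 probes had no match and kept the name in the file, and they count in the shares given for all genes. A gene counted as apart at 2-fold with all measured probes on the same side. A gene seen on 1 array has a bound, its level over the higher of the dim level and the other array's lowest level well above background. Errors of the model are the deposited signal errors, combined in log2, with no division by the number of spots. The steps for differences were tested on simulated arrays that shared the same background flags. Unequal detection and the bounds were therefore not tested.

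All 51 genes are accounted for. Of the other lineage genes, those at least 2-fold apart are named. The members and lists were chosen with earlier results of these data known. Normexp (limma 3.58.1, offset 50) used the array's median background at spots with a background flag. Python 3.11.15 was used. Precision is limited by there being 1 array per group.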

Additional observations from a re-analysis of the deposited data

How the results depend on the processing

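The counts of members at least 2-fold apart, 0 in each lineage, were 0 under every other setting except as follows. With spike-in scaling it was 1 erythroid gene (Klf1) and 1 mast cell, basophil and eosinophil gene (Prss34). With all probes kept it was 3 platelet genes (Gp1ba, Gp5, Gp6) and 1 mast cell, basophil and eosinophil gene (Prg3). At 1.5-fold in place of 2-fold it was 2 erythroid and 3 genes of the mast cell to eosinophil list. These 1.5-fold counts, taken under every setting after the data were seen, were 0 and 0 with normexp, 1 and 1 with probes above the 25th percentile of level, and 3 and 9 with all probes kept, where the platelet list had 3. With all probes kept, the 3 erythroid genes and 7 of the 9 were lower, and the 3 platelet genes were higher. Under that setting 6978 of 27620 genes were lower at that size and 1844 higher, so the counts lower are no result about the members. The median of the mast cell to eosinophil list was -0.17 with all probes kept. The other medians moved by less than 0.15, the SD of a single-spot difference. Spike-in scaling moved every difference by -0.13 alike, so members between 0 and 0.13 change sign by construction. Over all measured genes, 289 were at least 2-fold higher and 316 lower, against 164 and 120 with normexp, 203 and 109 with probes above the 25th percentile of level, and 790 and 980 with all probes kept. Spike-in scaling gave 223 and 421. No paired analysis was possible because each group is 1 array. Background limits the dim genes most: 15 of the 32 measured members were below the 25th percentile of level.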

Other observations

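Kit, the SCF receptor of mast cells and early progenitors, was printed as repeat spots and is given here after its values were seen. Its 9 usable spots ran from 3105 to 3338 with MEF2C-ASR, against 2206 to 2375 in the control, and did not overlap (difference 0.52, spotting error 0.02). The repeat spots of the platelet adhesion gene Selp did overlap, running from 101 to 219 with MEF2C-ASR and from 78.0 to 161 in the control (difference 0.36, spotting error 0.17).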
